A study of Mus musculus with 24 samples.

Results

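The heart ventricle of 1-year-old female FVB mice was compared with that of 3-month-old females, each on 3 Affymetrix mouse arrays, over all probe sets that were neither controls nor listed at 0 on every array. These were 9977 of 12654 probe sets, holding 7417 of the 8221 genes that have a probe set of 1 symbol, read on 6 of the 24 arrays of a series on cardiac development, maturation and ageing in this inbred strain. The other adult groups, with 3 arrays each, served to show which side of the comparison stood apart: 5-month-old males, and a second 1-year group whose titles carry an m while its descriptions give no sex. The labels name no genotype, treatment or other agent for any group, and the tissue is heart ventricle throughout. Titles carry a single number on each adult array and several on each embryonic and neonatal array, and the latter also enter the estimate of spread. The labels do not say whether an array stands for a separate animal or a pool, so each p-value speaks only of the scatter among these arrays.

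Adult ventricle is built mainly of cardiac myocytes, which live on fatty acids and beat with a fixed set of contractile proteins. Under load these cells return in part to a fetal pattern, releasing natriuretic peptides and making skeletal alpha-actin. Endothelial cells, fibroblasts, resident macrophages and the blood left in the vessels add their own RNA to a piece of ventricle, and antigen presentation by class I and class II molecules is carried largely by these other cells. In such bulk samples, fewer cells of a type and less RNA per cell cannot be told apart.

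Median signals lay between 195.7 and 225 on the 24 arrays. Log2 signals of arrays within a group correlated over probe sets with Pearson r from 0.9071 to 0.9296 at 3 months and from 0.9207 to 0.9318 in 1-year females. The labelled sex was borne out by Xist, the RNA that silences an X chromosome, at 817, 1164 and 580.3 at 3 months and 892, 1329.5 and 1209 at 1 year, against group means of 28.3 in 5-month males and 38.8 in the 1-year m group. A control probe set for 18S ribosomal RNA read 19.1 to 26.6 on the 3-month arrays, under all 3 arrays of each other adult group (132.7 to 380.6 in 1-year females, 204.6 to 740.4 for 5-month males, 28.1 to 317.2 for the 1-year m arrays). The 5' and 3' probe sets for 18S RNA did not stand apart in this way. At 3 months they read 45.4 to 164.5 and 268.1 to 461.2, and in the 1-year m group 30.3 to 320.5 and 242.2 to 731.5. In 1-year females they read 159.1 to 437.2 and 581.8 to 799.9. The 3' to 5' ratio of actin, a sign of RNA integrity, ran from 0.91 to 1.44 at 3 months and from 1.24 to 1.59 in 1-year females. The part of these readings in the results was not tested.

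Few genes passed the threshold between 3-month and 1-year females. Of 9952 probe sets tested with limma, 37 passed the threshold of 0.05 after Benjamini-Hochberg adjustment (0.372%), 24 higher and 13 lower at 1 year, while 1007 had an unadjusted p under 0.05. With each gene represented by its brightest probe set, 30 of 7406 genes passed (0.405%), 19 higher (0.257%) and 11 lower (0.149%). The 3 arrays of one age lay wholly apart from the 3 of the other for all 37 probe sets, as they did for 1477 of the 9952 (14.8%). The split of calls moved with scaling, to 16 higher and 16 lower with median centring and to 22 higher and 18 lower with quantile normalization. The count also depended on single arrays. It was 18 without 3-month replicate 2, 69 without 3-month replicate 3, 14 without 1-year female replicate 2 and 11 without 1-year female replicate 3. When the spread was estimated from the 4 adult groups alone 16 passed, and from the 6 arrays alone 1 passed, a probe set for Tyms-ps.

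Setting each female group against the mean of the 5-month males and the 1-year m group showed which age stood apart. Against that mean, 61 probe sets passed for the 3-month females (0.613%) and 29 for the 1-year females (0.291%). Among the 37 probe sets, 18 differed from it only on the 3-month side of the threshold, 7 only on the 1-year side and 12 on neither. Of the 24 that were higher at 1 year, 13 belonged to the 3-month side, so that in these the 3-month level was low against the other adults and the 1-year difference from them did not pass. The 3-month distance was the larger in 24 of the 37 and in 54.5% of all probe sets tested. These comparisons share arrays with the main one and are given as values side by side. The 61 became 38, 21 and 112 without 3-month replicates 1, 2 and 3 and 38 without 5-month replicate 3. The 29 became 10 and 7 without 1-year female replicates 2 and 3, 19 without 5-month replicate 1 or 2, and 17 without 1-year m replicate 2.

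**Figure D1:**
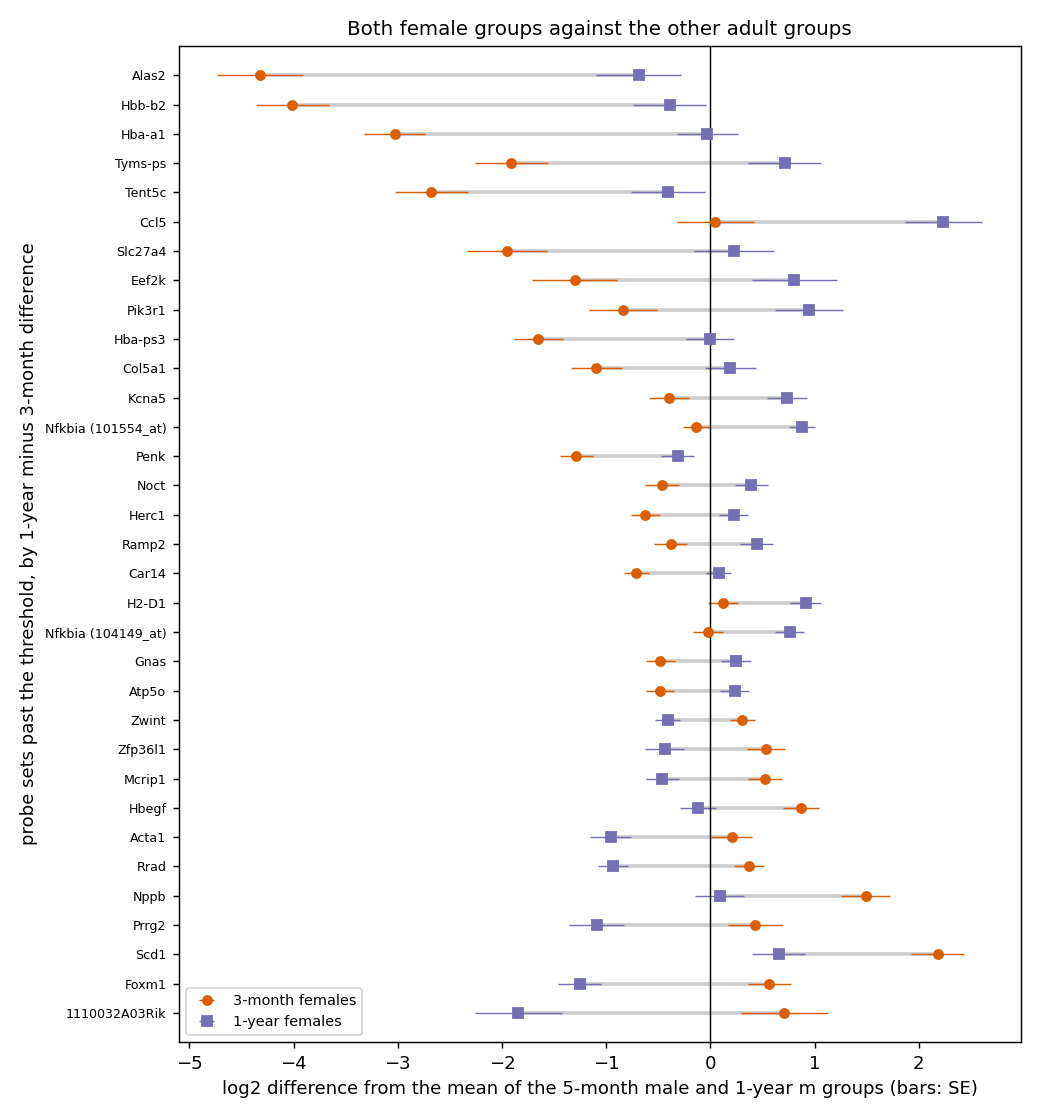
Log2 difference of the 3-month females (circles) and the 1-year females (squares) from the mean of the 5-month male and 1-year m groups, with SE, for the 33 probe sets past the threshold that carry 1 gene symbol, ordered by their difference. The erythroid genes at the top sit far below 0 at 3 months (Hba-a1 at -3.03). At 1 year they lie closer to it, with Alas2 at -0.69 and Hba-a1 at -0.03. Nppb sits near 0 at 1 year and at 1.49 at 3 months, and Nfkbia sits at -0.13 at 3 months and 0.88 at 1 year. Rrad sits at 0.37 at 3 months and -0.93 at 1 year.

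The largest differences were in transcripts of the red cell lineage, which were low in the ventricle of 3-month females. They are shown with the 200 bases before their start sites, from the RefSeq table of GRCm38.p6, because erythroid genes are classic targets of GATA factors. Capitals mark GATAA on either strand, a motif present in 18.1% of 32851 promoter windows of this length. The windows are chr11:32283472-32283671 (plus strand) for Hba-a1 and chrX:150547217-150547416 (plus strand) for Alas2, where the match reads on the opposite strand.
Hba-a1: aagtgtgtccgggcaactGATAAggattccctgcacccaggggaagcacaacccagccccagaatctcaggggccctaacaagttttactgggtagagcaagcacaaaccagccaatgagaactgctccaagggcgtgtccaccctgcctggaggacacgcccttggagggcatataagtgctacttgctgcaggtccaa
Alas2: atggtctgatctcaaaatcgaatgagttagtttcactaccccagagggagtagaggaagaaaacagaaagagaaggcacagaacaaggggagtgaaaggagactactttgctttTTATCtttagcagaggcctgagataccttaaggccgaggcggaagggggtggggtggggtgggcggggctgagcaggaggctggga
Each window holds 1 match, which describes its letters and no more.

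Hba-a1, the alpha chain of adult hemoglobin, read 4030.2, 5101 and 1230.0 on the 3-month arrays and 21192, 19752 and 30813 on those of 1-year females. All 3-month arrays lay below all other 21 arrays of the series, and the difference was 3.00 ± 0.34 (log2 ± SE, adjusted p 1.78e-05). Hbb-b2, an adult beta chain, read 746, 1504 and 218.9 at 3 months and 7736, 7240.2 and 8210.3 at 1 year, a difference of 3.62 ± 0.40 (adjusted p 1.78e-05). Near-identical copies of the globin genes exist, so which copy a probe set reads is uncertain. Alas2, the erythroid enzyme that starts heme synthesis, read 130.2, 21.7 and 38.4 at 3 months and 810.0, 387 and 658 at 1 year (3.63 ± 0.47, adjusted p 0.000134). On 2 of the 3 younger arrays it was under the background level of 124.6, which is the 95th percentile of the 19 control probe sets for bacterial and yeast sequences. The size of its difference is therefore uncertain, and it was 2.22 (adjusted p 0.014) with values floored at the background. Replicate 3 had the lowest globins of the 3-month arrays and replicate 2 the lowest Alas2.

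Further transcripts read low at 3 months. Hba-ps3, an alpha-globin pseudogene, read 237, 514 and 467 at 3 months and 1337, 844 and 1552 at 1 year (1.65 ± 0.27, adjusted p 0.0028). Tent5c, a poly(A) polymerase known from plasma cells and erythroid precursors, was under background on every 3-month array, at 64.9, 23.6 and 41.8, and read 211, 116.5 and 293 at 1 year (2.27 ± 0.41, adjusted p 0.0101). It was at least 1.55-fold higher at 1 year, a bound that sets the mean of the bright group, taken on the log2 scale, against the background level. The bound carries no error, and the 1-year array at 116.5 was itself under background. Of the 12 erythroid markers tested 3 rose and 0 fell, where 0.257% of all genes rose and 0.149% fell, with a median of 0.93 (log2) beside 0.04 over all genes. Over all alternatives the median ran from 0.07 to 1.36, and 7 of the 12 had a mean above background at either female age. Gata1 and Fech lay below 0 (-0.48 and -0.29) and are named after their values were seen. Slc4a1, the anion exchanger of the red cell membrane, differed by 0.10 (log2, adjusted p 0.977), and Klf1, the erythroid Krüppel-like factor, by 0.51 (adjusted p 0.893). Summed over the list, the signal was 2579 to 7616 at 3 months, 28413 to 41045 in 1-year females, and it was 28199 to 50675 for 5-month males and 31878 to 43058 for the 1-year m arrays. These sums include Hba-a1, at means of 3454 and 23919 in 3-month and 1-year females, and Hbb-b2, at 823 and 7729.

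**Figure D2:**
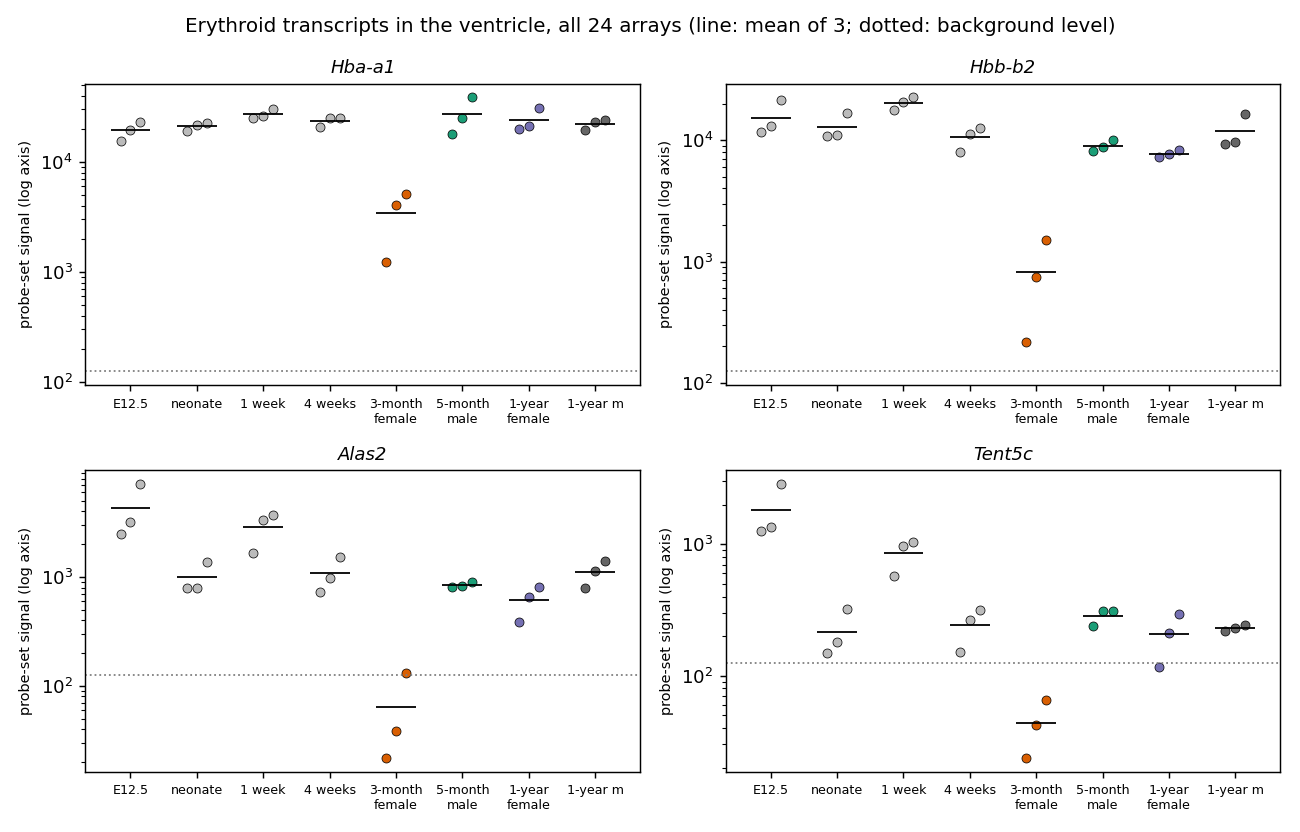
Probe-set signal (log axis) of Hba-a1, Hbb-b2, Alas2 and Tent5c on all 24 arrays by age group, with 1 point per array, a line at the mean of 3, and a dotted line at the background level of 124.6. The 3-month female arrays lie below every other array in each panel, for Hba-a1 between 1230.0 and 5101 where 1-year females start at 19752.

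Hba-a1, Hbb-b2 and Alas2 held their calls in 14 of 15 alternatives, losing them only when the spread came from the 6 arrays alone (adjusted p 0.131, 0.131 and 0.151). Tent5c held in 10 of 15, and was lost also without 3-month replicate 2 (adjusted p 0.0579) and without 1-year female replicate 3 (0.106). With values floored at the background its difference shrank to 0.67 (log2) and the call was lost. The call was lost too with the 4 adult groups alone in the fit.

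The other genes low at 3 months belonged to no single list. Slc27a4, a fatty acid transport protein, was under background at 3 months, at 47.3, 46.7 and 65.0, and read 211, 232 and 270.2 at 1 year, at least 1.9-fold higher (2.17 ± 0.44 as fitted, adjusted p 0.02). The groups did not overlap, and all 3-month arrays lay below the other 21. Penk, the precursor of the enkephalin peptides, read 689.5, 741 and 834 against 1746, 1329 and 1386 (0.97 ± 0.18, adjusted p 0.0138), with means of 1878 in 5-month males and 1842 in the 1-year m group. At 4 weeks Penk averaged 685, and the 3-month females differed from that age by 0.14 (log2, adjusted p 0.83). A probe set for Tyms-ps, a thymidylate synthase pseudogene, read 288, 173 and 296 against 1304, 1640.4 and 1606 (2.62 ± 0.41, adjusted p 0.00168) and kept its call in all 15 alternatives. Its low level was not confined to the 3-month arrays, since the 1-year m group read 1566.7, 306 and 413 and 5-month males 1230.3, 1424 and 1761. A second Tyms-ps probe set, with means of 47.9 and 37.7 under background, differed by -0.26. Car14, a membrane carbonic anhydrase (0.79), Herc1, a giant ubiquitin ligase (0.85), and Col5a1, a fibrillar collagen chain (1.28, not its brightest probe set), were also of this side and are named after their values were seen, as are 2 probe sets shared by several genes (3.21 and 2.10). The one at 3.21 read 3590, 5183 and 1058 at 3 months and 22924, 21565 and 31820 at 1 year. Its arrays fell in the same order as those of Hba-a1 within each group. Lacking a single symbol, it could enter no list, the erythroid one included.

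Slc27a4 was lost without any one of 5 of the 6 arrays (adjusted p 0.0564 to 0.106), the exception being 3-month replicate 3. Its call was lost too with values floored at the background. Penk was lost without 3-month replicates 1 or 2 or 1-year female replicates 1 or 3 (0.0503 to 0.085).

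Nppb was among the genes that were high at 3 months. It encodes B-type natriuretic peptide, which the ventricle releases when stretched, and it read 23605, 22371 and 16437 at 3 months against 8106, 8762 and 6618 in 1-year females. Every 3-month array lay above all other 21 arrays, where the means were 6411 ± 2643 (SD) in 5-month males and 8911 ± 1029 in the 1-year m group. The fall with age was -1.40 ± 0.27 (log2 ± SE, adjusted p 0.0145), and against the other adults the 3-month females stood at 1.49 (adjusted p 0.00129) and the 1-year females at 0.09 (0.986). The call was lost without 3-month replicates 1 or 2 (adjusted p 0.0679 and 0.0631) and without 1-year female replicates 2 or 3 (0.052 and 0.106).

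Scd1, the desaturase that makes monounsaturated fatty acids, read 1277, 3519 and 2106 at 3 months and 745, 773 and 688 at 1 year. The 3-month arrays were again above all other 21, and replicate 2 was the highest of them by a wide margin. The difference was -1.53 ± 0.29 (adjusted p 0.0139), and a second probe set gave -1.65 (adjusted p 0.306) while the third, with both means under background, gave 0.06. Without 3-month replicate 2, the highest array, the difference was -1.16 (adjusted p 0.103), and without 1-year female replicates 2 or 3 adjusted p was 0.053 and 0.106. Among the 16 adipocyte markers Scd1 alone passed, with summed levels of 8651 to 10749.9 at 3 months and 8004 to 8861 at 1 year. These sums include Scd1 itself, at means of 2301 and 735, and the part of fat cells was not tested.

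Hbegf, a membrane-anchored growth factor that binds the EGF receptor, read 931, 1266 and 1129 against 673, 521 and 486 (-0.99 ± 0.20, adjusted p 0.0173), above all 21 other arrays at 3 months. It was lost without 3-month replicate 2 (adjusted p 0.104) or 1-year female replicates 2 or 3 (0.101 and 0.112). A probe set without a gene symbol, chosen after its values were seen, read 528.8, 751 and 684 at 3 months and was under background at 1 year at 115.2, 74.2 and 65.5, at least 5.2-fold lower. A probe set shared by several genes (-0.68) completed the 5 that fell from a high 3-month level.

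**Figure D3:**
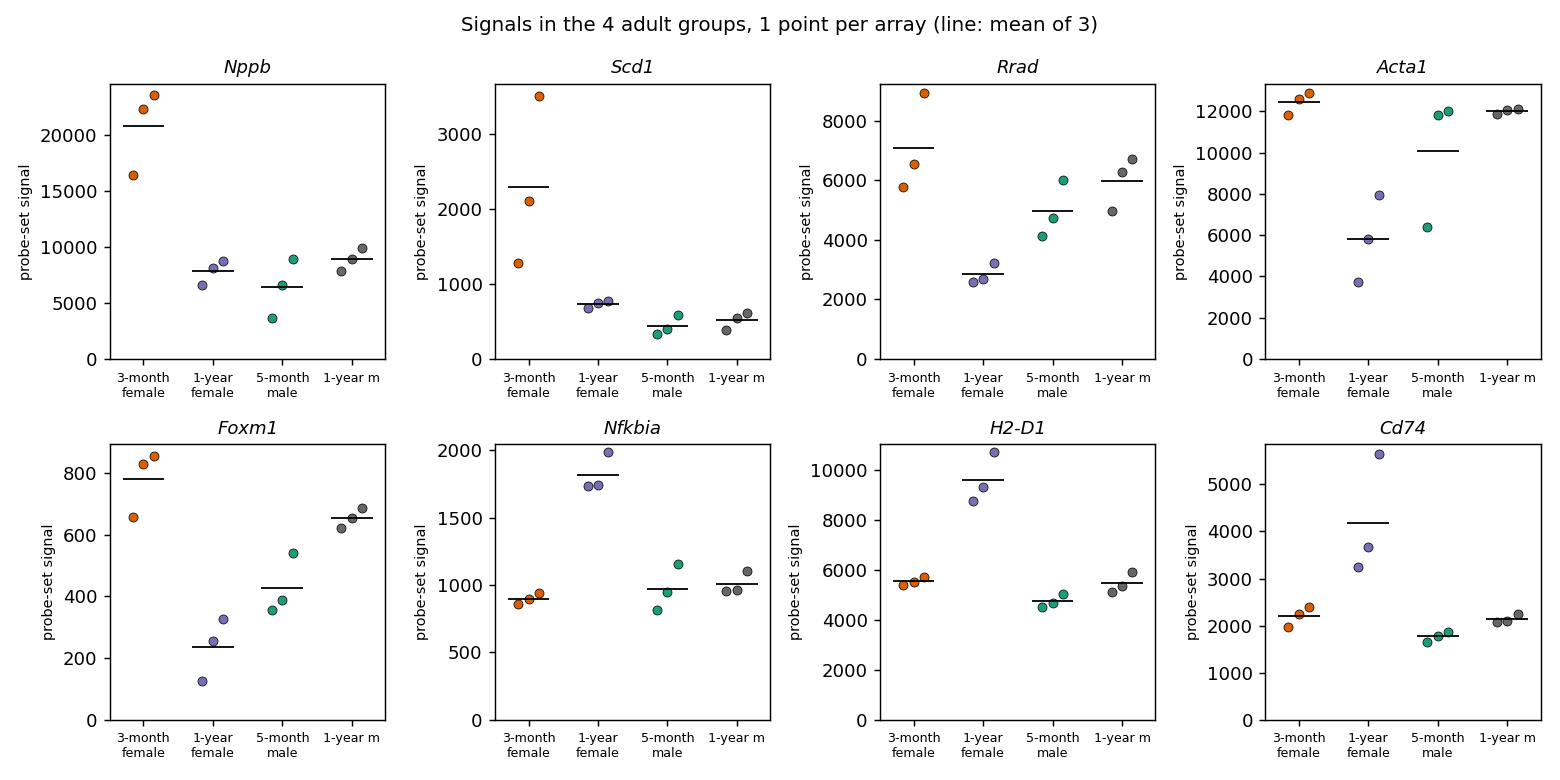
Probe-set signal of 8 genes in the 4 adult groups, 1 point per array with a line at the mean of 3, on axes from 0. Nppb and Scd1 are highest in the 3-month females, Rrad and Foxm1 are lowest in the 1-year females, and Nfkbia, H2-D1 and Cd74 are highest in the 1-year females.

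Nfkbia, H2-D1 and Ccl5 were higher in the 1-year females than in any other adult group. The 200 bases before the start sites of Nfkbia and H2-D1 (RefSeq, GRCm38.p6) are given because both genes are known targets of NF-kappa B, with matches to the kappa B motif on either strand in capitals. This motif occurs in 6.07% of the 32851 windows. The windows are chr12:55492648-55492847 (minus strand) for Nfkbia and chr17:35262894-35263093 (plus strand) for H2-D1.
Nfkbia: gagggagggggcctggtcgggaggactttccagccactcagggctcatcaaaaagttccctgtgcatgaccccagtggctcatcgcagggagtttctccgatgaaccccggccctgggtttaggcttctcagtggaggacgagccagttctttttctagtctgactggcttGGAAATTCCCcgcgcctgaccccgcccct
H2-D1: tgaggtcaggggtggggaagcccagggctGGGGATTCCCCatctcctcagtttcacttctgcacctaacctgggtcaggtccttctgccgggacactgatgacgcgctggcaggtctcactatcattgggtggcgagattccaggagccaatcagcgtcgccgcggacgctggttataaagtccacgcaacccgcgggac
The Nfkbia window has 1 match and the H2-D1 window 2 that overlap, which says nothing of binding here.

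Nfkbia, the inhibitor that holds NF-kappa B in the cytoplasm and is itself its target, read 859.9, 896 and 941 at 3 months and 1741.5, 1986.5 and 1732 in 1-year females. The older arrays lay above all other 21 arrays, and the 5-month males and 1-year m group had means of 973 ± 170 and 1011 ± 83.6 (SD). The difference was 1.02 ± 0.14 (log2 ± SE, adjusted p 0.000431), and a second probe set also passed, at 0.78 ± 0.16 (adjusted p 0.0257). Against the other adults the 1-year females stood at 0.88 (adjusted p 0.00147) and the 3-month females at -0.13 (0.779). The call held in 14 of 15 alternatives and was lost when the spread came from the 6 arrays alone (adjusted p 0.092).

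H2-D1, a classical class I heavy chain, read 5516, 5737 and 5385 at 3 months and 9342, 10729 and 8789 at 1 year, where it again exceeded the other 21 arrays (0.79 ± 0.17, adjusted p 0.0306). Class I genes are alike in sequence, so the probe set may read more than one, and 2 further H2-D1 probe sets gave 1.05 (adjusted p 0.07) and 0.77 (0.486). The call was lost without any one of the 6 arrays (adjusted p 0.0683 to 0.157). Ccl5, a chemokine of T lymphocytes, passed at 2.19 ± 0.43 (adjusted p 0.0145), but it read 18.7, 24.8 and 20.5 against 54.6, 97.4 and 169.4, above background on 1 array only, so no fold is given. Its call was lost without 3-month replicates 1 or 2 or 1-year female replicates 2 or 3 (adjusted p 0.0513 to 0.112).

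Across the class I pathway 1 of 16 genes passed and 0 fell, with a median of 0.29 (log2). A further 4 had an unadjusted p under 0.05, all higher, beside 5.97% of all genes higher and 4.74% lower by that rule: H2-K1, another heavy chain (0.67, adjusted p 0.163), and the immunoproteasome genes Psmb9 (1.22, 0.212), Psmb10 (0.59, 0.112) and Psme1 (0.53, 0.113), which cut proteins into peptides for presentation. B2m, the light chain, differed by 0.10 (adjusted p 0.969). The summed class I signal was 30135 to 36302 at 3 months and 39409 to 55761 in 1-year females, with 25053 to 26642 for 5-month males and 28788 to 32870.2 for the 1-year m arrays. Against the other adults H2-K1 in 1-year females stood at 0.94 (adjusted p 0.015). H2-K1, Psmb9, Psmb10 and Psme1 are named after their values were seen.

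None of the 11 class II genes tested passed, although all 11 were higher at 1 year, with a median of 0.795 (log2) beside 0.04 over all genes and 0.13 for the same list between the m groups. The arrays did not overlap for 6 of them, where 8.52% of all genes lay wholly higher, and 3 had an unadjusted p under 0.05. Cd74, the invariant chain that guides class II molecules, read 2405, 2246 and 1969 at 3 months and 3249, 5651 and 3665 at 1 year (0.89 ± 0.25, adjusted p 0.125), and Ctss, the protease that trims it, gave 0.79 ± 0.27 (adjusted p 0.242). Against the other adults Cd74 in 1-year females stood at 1.06 (adjusted p 0.0251). The summed signal was 5036 to 5438 at 3 months, 7764 to 12475 in 1-year females, with 3989 to 4478 for 5-month males and 4866 to 5405 for the 1-year m arrays. Replicate 2 was the highest 1-year array for Cd74, H2-Aa and H2-Ab1, and over all alternatives no member passed while the median stayed between 0.60 and 0.94.

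Marker lists of macrophages and lymphocytes held no gene past the threshold, and 1 or 2 each by unadjusted p, beside 793 of all 7406 genes. The macrophage list had 0 of 19, a median of -0.25 and summed levels of 5758 to 6729.6 at 3 months against 5346 to 6083 at 1 year. B lymphocyte and plasma cell markers had 0 of 12 and summed levels of 2741 to 2932 against 2252 to 2699.8, and T lymphocyte and natural killer markers 0 of 15 and 959.7 to 1716 against 1315 to 1883. Cd14, a macrophage receptor for bacterial products, gave -0.57 (adjusted p 0.315). Of the 23 interferon response genes 0 passed, with 1 higher by unadjusted p, 18 above 0 and a median of 0.25. The part of these cells in the class I and class II values was not tested.

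Among the adult groups, Rrad, Foxm1 and Acta1 had their lowest means in the 1-year females. The promoter of Acta1 is printed because this actin is a textbook readout of load on the myocyte through serum response factor and TEAD factors. Its window is chr8:123894776-123894975 (minus strand, RefSeq, GRCm38.p6). Capitals mark a CArG box, found in 1.18% of windows, and CATTCC, found in 10.1%.
Acta1: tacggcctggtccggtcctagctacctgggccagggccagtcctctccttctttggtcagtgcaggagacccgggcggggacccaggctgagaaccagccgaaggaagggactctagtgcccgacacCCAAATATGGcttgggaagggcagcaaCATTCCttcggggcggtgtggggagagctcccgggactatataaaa
The window holds 1 match to each motif, both searched on either strand.

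Rrad, a small GTPase that restrains L-type calcium channels, read 8931, 6554 and 5763 at 3 months and 3228, 2697.5 and 2598 in 1-year females. All 1-year arrays lay below the other 21, where 5-month males had 4961 ± 956 (SD) and the 1-year m group 5987.5 ± 912. The difference was -1.30 ± 0.17 (log2 ± SE, adjusted p 0.000134), and the call held in 14 of 15 alternatives, the exception being the fit on the 6 arrays alone (0.131). Foxm1, a transcription factor of dividing cells, read 828, 658 and 857 against 327.5, 127.0 and 256, below the other 21 arrays at 1 year (-1.82 ± 0.24, adjusted p 0.000134, held in 14 of 15). A second Foxm1 probe set was under background in both groups and gave -0.30. The called probe set had means of 813 at embryonic day 12.5 and 781 at 3 months. The summed signal of the cell cycle list was 34012 to 36271 and 4452 to 6039 at these ages.

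Acta1 read 11817, 12882 and 12601 at 3 months and 5835, 7921 and 3730.0 in 1-year females (-1.16 ± 0.23, adjusted p 0.0145). The groups did not overlap, but 1 array of 5-month males also read low, at 6371, while the other 2 stood at 11823 and 12029. Without 1-year female replicate 3 the fall was -0.87 (adjusted p 0.122), and without 3-month replicate 2 adjusted p was 0.0591. Of 17 skeletal muscle markers Acta1 alone passed, and the list's summed level, Acta1 included at means of 12433 and 5829, was 20614 to 23145 at 3 months and 10136 to 16680.2 in 1-year females. The part of skeletal muscle in the sample was not tested.

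In 12 probe sets neither female group differed from the other adults beyond the threshold, and the 3-month and 1-year females lay on opposite sides of them. Pik3r1, the regulatory subunit of phosphoinositide 3-kinase, read 164, 283 and 176 at 3 months and 726, 852 and 534 at 1 year (1.78 ± 0.37, adjusted p 0.0275). In the m groups it went the other way, with a mean of 558 in 5-month males and 282 at 1 year. Kcna5, a repolarizing potassium channel, read 505, 489.6 and 441 against 885, 1164 and 1115 (1.13 ± 0.22, adjusted p 0.0145). Ramp2, which makes the adrenomedullin receptor in endothelium, read 785, 870.0 and 761 against 1442.5, 1588 and 1259 (0.82 ± 0.18, adjusted p 0.0398).

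Gnas, the stimulatory G protein behind the beta-adrenergic receptor (0.72 ± 0.16, adjusted p 0.0445), Atp5o, a subunit of ATP synthase (0.72 ± 0.16, 0.0445), and Eef2k, the kinase that slows peptide elongation (2.11 ± 0.47, 0.0445), completed the named rises. Eef2k was under background on all 3-month arrays and was at least 2.14-fold higher at 1 year. With values floored at the background the call of Eef2k was lost. A second probe set for Gnas gave 0.04 and the third, with means of 25.1 and 56.0, 0.76. Noct, a clock-linked phosphatase, passed on a probe set that is not its brightest (0.86) and is named after its values were seen.

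The falls without a side were Zwint, a kinetochore protein (-0.71 ± 0.14, adjusted p 0.0145), Zfp36l1, which destabilizes messenger RNAs (-0.98 ± 0.21, 0.0396), Mcrip1 (-0.99 ± 0.19, 0.0138) and Prrg2 (-1.52 ± 0.31, 0.0195). Zwint read 2497, 2278 and 2314 at 3 months and 1404.5, 1499.8 and 1414 at 1 year. The clone 1110032A03Rik read 399.6, 339 and 481 at 3 months and was under background at 1 year, at least 3.23-fold lower. Its call was lost with values floored at the background. Each of the 11 named genes of this kind was lost without 1-year female replicate 3 (adjusted p 0.0839 to 0.125). For 1110032A03Rik this was the only such array, Mcrip1 was lost also without replicate 2 of that group, Ramp2 without any one of the 6 arrays and the other 8 without 3 to 5 of them. Gnas and Atp5o were lost with quantile normalization and with median centring as well. Nkx2-5, the cardiac homeobox factor, and Flt3, a receptor tyrosine kinase of blood progenitors, had the lowest p among falls that did not pass (-0.69 and -0.86, adjusted p 0.0544 for both). A second Flt3 probe set, with means of 820 at 3 months and 798 at 1 year, gave 0.05 (adjusted p 0.988).

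Of the 47 gene lists, that of fetal and stress genes of the myocyte had the most calls lower at 1 year. Of 15 tested, 2 fell (Nppb and Acta1) and 0 rose, where 0.149% of all genes fell, 13 were below 0, and the median was -0.47 (log2) beside 0.04 over all genes. By unadjusted p 7 were lower where 4.74% of all genes were, and 6 lay wholly lower where 7.28% of all genes did. Nppa, atrial natriuretic peptide, read 2670.1, 3148 and 3048.5 at 3 months and 1195, 1798 and 1179.9 in 1-year females (-1.11 ± 0.28, adjusted p 0.0843). The others, named after their values were seen, were Xirp1, an intercalated disc protein (-0.74, adjusted p 0.133), Rcan1, a calcineurin inhibitor (-0.61, 0.18), Ankrd1, a titin-linked stretch sensor (-0.47, 0.247), and Fhl1, a LIM protein (-0.33, 0.413). Myh7, the fetal myosin heavy chain, differed by 0.05 (adjusted p 0.985).

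Between the m groups the list's median was 0.35, with 5 genes higher by unadjusted p, where 4.64% of all genes were higher and 4.55% lower. Markers of atrial myocytes moved with it. Of 10 tested 0 passed, the median was -0.505 in females and 0.98 in the m groups, and the summed level was 4321 to 7491 at 3 months, 2955.5 to 3884 in 1-year females, 2096 to 2412 for 5-month males and 3385 to 12625 for the 1-year m arrays. Myl7, the atrial light chain, read 110.5, 1689 and 1748 at 3 months and 212, 431 and 590.2 at 1 year. Nppa, Myl4 and Myl7 are on both lists, so the lists share members and are not independent. The part of atrial tissue in these values was not tested.

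**Figure D4:**
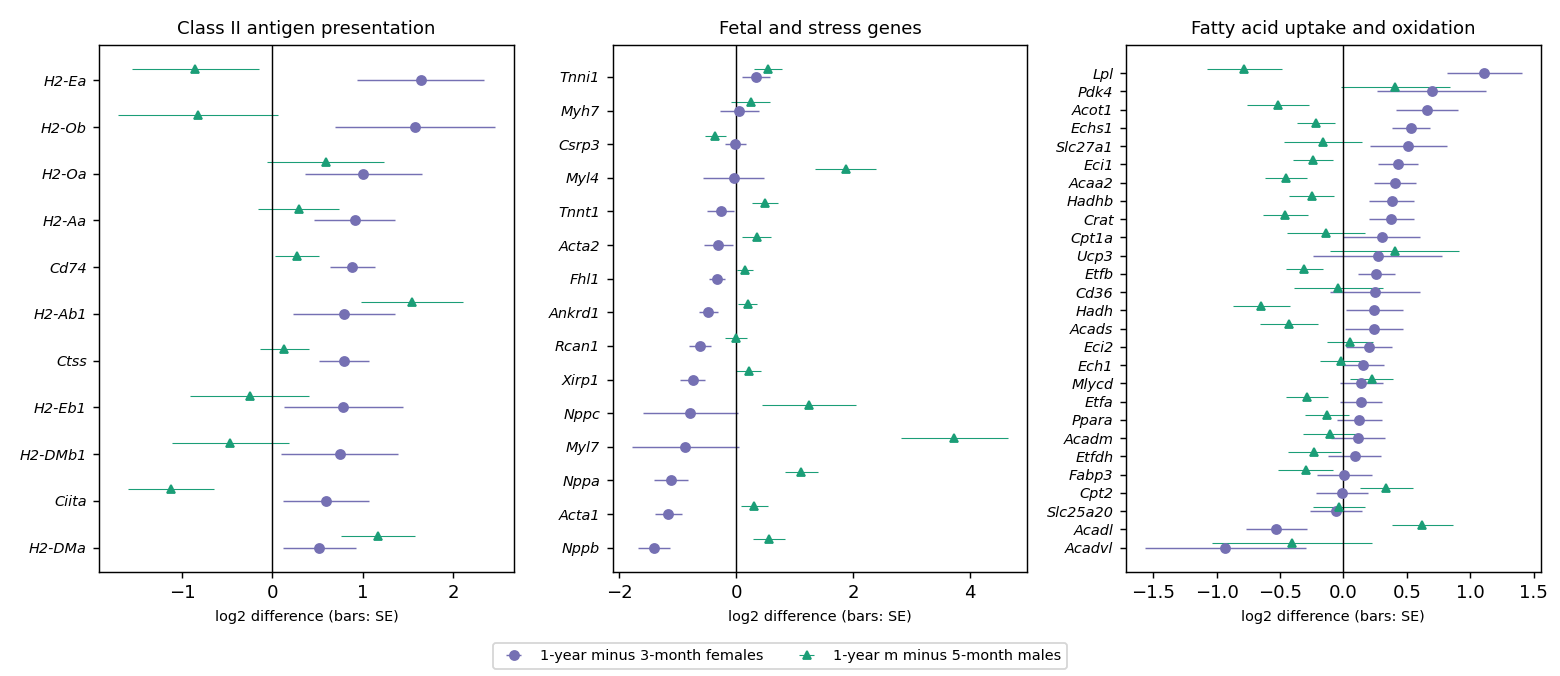
Log2 difference with SE for the members of 3 gene lists, in 1-year against 3-month females (circles) and from 5-month males to the 1-year m group (triangles). All 11 class II genes are above 0 in females, 13 of 15 fetal and stress genes are below 0, and 23 of 27 fatty acid genes are above 0.

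Genes of fatty acid uptake and oxidation lay slightly higher in 1-year females, none past the threshold. Of 27 tested, 23 were above 0, 7 were higher and 1 lower by unadjusted p, where 5.97% of all genes were higher and 4.74% lower. The median was 0.24 (log2) beside 0.04 over all genes, and -0.22 in the m groups. Lpl, the lipase that frees fatty acids from lipoproteins, read 5703.5, 7083 and 6902 at 3 months and 12768, 12376 and 17842 at 1 year (1.11 ± 0.29, adjusted p 0.103). Echs1, a hydratase of the oxidation spiral, gave 0.53 ± 0.15 (adjusted p 0.125). Summed, the list was 113516 to 136034 at 3 months and 141414 to 167746 in 1-year females, with 163951 to 200935 in 5-month males, so the 3-month arrays were the lowest of the adults. Idh2, of the mitochondrial citrate cycle, read 14880.4, 11072 and 12631 against 18970.1, 19008 and 19569.9 (0.59 ± 0.14, adjusted p 0.0733).

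Among contractile genes Myl2, the ventricular regulatory light chain, rested on 1 array. It read 14949, 302 and 17033 at 3 months and 28506, 26932 and 35611 at 1 year (2.82 ± 0.83, adjusted p 0.14), with 3-month replicate 2 far below the other arrays of both groups. None of 12 sarcomere genes passed, and 3 were higher by unadjusted p, where 5.97% of all genes were. Of 22 endothelial genes Ramp2 alone passed, with summed levels of 15499 to 16271 at 3 months and 16788 to 18107 in 1-year females, and Cdh5, the endothelial cadherin, gave 0.65 (adjusted p 0.0909). Collagens had 0 of 20 past the threshold, with 14 above 0 4 with an unadjusted p under 0.05 and Col1a2 at 0.51 (adjusted p 0.125). Antioxidant enzymes had 0 of 20 past it with 6 lower and 1 higher by unadjusted p, beside 4.74% and 5.97% of all genes. Gpx3, the secreted glutathione peroxidase, stood at -0.53 (adjusted p 0.199), and Sod2, the mitochondrial superoxide dismutase and the 1 higher, at 0.39 (adjusted p 0.444), which is named after its values were seen.

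Other lists held few calls. Foxm1 was the only gene called among 29 of the cell cycle, Pik3r1 among 32 of insulin and growth factor signalling, Gnas among 21 of adrenergic and renin-angiotensin signalling, Kcna5 among 25 of calcium handling and ion channels, Atp5o among 13 of ATP synthase and Ccl5 among 25 cytokines and chemokines. Against the fall of Foxm1, 21 of the 29 cell cycle genes lay above 0, with a median of 0.29 (log2). By unadjusted p 3 were higher and 2 lower, beside 5.97% and 4.74% of all genes. No gene of complex I (25 tested), complexes II to IV (23), the citrate cycle (17), glycolysis (16), TGF-beta signalling (26), complement (13), the clock (16), the proteasome (22) or ribosomal proteins (19) passed, and 1 to 5 of each had an unadjusted p under 0.05, as 793 of all 7406 genes had. Single members with low p were Klf9, a glucocorticoid-responsive factor (0.71 ± 0.17, adjusted p 0.077), Fn1, fibronectin (0.67 ± 0.17, 0.0909), Sqstm1, the autophagy adaptor (-0.50 ± 0.13, 0.0959), and Gstm5, a glutathione transferase (-0.57 ± 0.15, 0.107). A second Klf9 probe set, with means of 583 at 3 months and 706 at 1 year, gave 0.24 (adjusted p 0.907). Further Gstm5 probe sets gave -0.19 (adjusted p 0.824) and -0.24 (0.94).

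A step from younger to older adults could also be examined in the m groups. From 5-month males to the 1-year m group 1 of 9952 probe sets passed (0.01%), against 897 with an unadjusted p under 0.05. It reads Pold1, a DNA polymerase subunit, at 247, 459.9 and 312 in 5-month males and 71.3, 122.8 and 105 in the 1-year m group, and is named after its values were seen. Without 5-month replicate 2 Pold1 lost its call, and 1 other probe set passed in the opposite direction. The count was 94 without 1-year m replicate 1, 4 without 1-year m replicate 3, 3 without 5-month replicate 1 and 0 when the spread came from the 4 adult groups alone. Of the 37 probe sets called in females 8 had the same sign in the m groups, where 43.39% of all probe sets did, and 9 had an unadjusted p under 0.05 there.

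The difference between both ageing comparisons was tested directly, and 108 of 9952 probe sets passed (1.09%), 60 higher and 48 lower in females. Among the 37 probe sets called in females 27 passed this test. It contains the female comparison that picked the 37, on the same arrays, so this count is no independent support. Hba-a1 differed by 3.24 ± 0.48 (log2 ± SE, adjusted p 0.00179), Rrad by -1.58 ± 0.24 (0.00179), Nppa by -2.23 ± 0.40 (0.00766) and Lpl by 1.89 ± 0.42 (0.0281). H2-D1, at 0.59 ± 0.24 (adjusted p 0.283), did not pass. Because the younger females were 3 and the younger males 5 months old, sex and the younger age cannot be told apart here. The count was 19 without 1-year m replicate 2 and 347 without 1-year m replicate 1. It was 30 to 61 without 3-month replicate 3, any 1-year female array, any 5-month array or 1-year m replicate 3, and 1 when the spread came from the 4 adult groups alone.

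**Figure D5:**
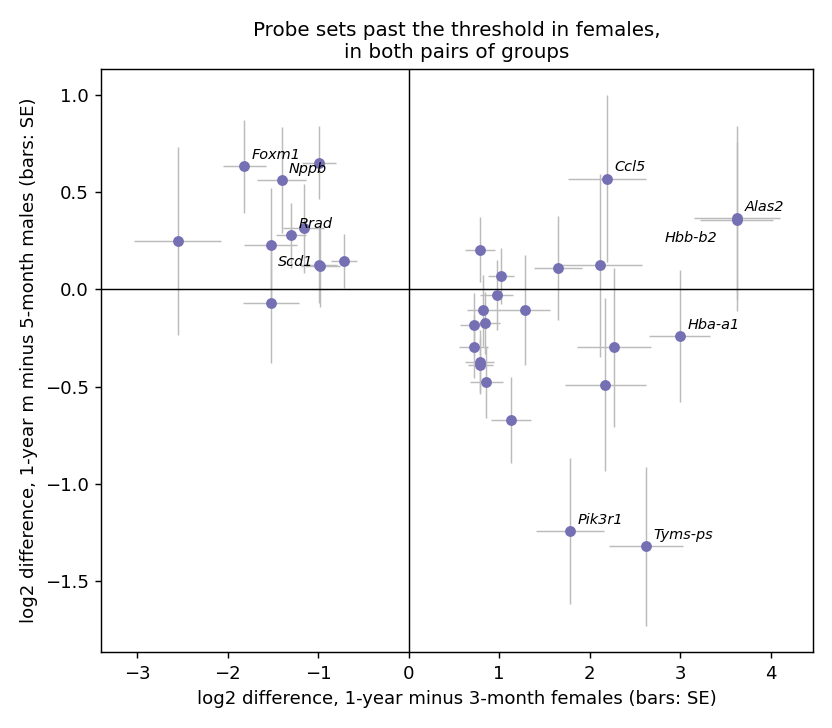
Log2 difference with SE of the 33 probe sets past the threshold with 1 gene symbol, in 1-year against 3-month females (x axis) and from 5-month males to the 1-year m group (y axis). Most points lie off the diagonal, with Hba-a1 at 3.00 on the x axis and -0.24 on the y axis, and Tyms-ps and Pik3r1 below 0 on the y axis.

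Counted over the series, 33 probe sets lay above all other 21 arrays on every 3-month array and 31 below, of which 4 and 10 were called between the female ages. In 1-year females 44 lay above and 13 below, with 4 and 4 called. The 5-month males had 20 above and 10 below, and the 1-year m group 6 and 7.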

How the data were processed

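Total RNA of heart ventricle was read on 24 Affymetrix mouse arrays in 8 groups of 3, grouped by age and sex as the labels give them. The deposited values are 1 linear signal intensity per probe set and array, made by the authors. No source used here states the software, the scaling or the detection calls. Over values above 0, with 2% trimmed at each end, the mean was 500.44 to 500.6 on all 24 arrays, so the arrays had been put on one scale. Intensities are relative, and only the number of arrays and the background limit precision. The 66 control probe sets and 2611 listed at 0 on all arrays were left out.

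Signals were floored at 14.2, the 25th percentile, and put on the log2 scale. The 9952 probe sets above the floor on at least 3 arrays were fitted with limma 3.58.1 in R 4.3.3, with 1 mean per group over all 24 arrays (16 residual degrees of freedom), an intensity trend and two-sided p-values adjusted by Benjamini and Hochberg at 0.05. The calculation was tested on simulated data. Of the 9977 probe sets, 8724 carry 1 gene symbol, 346 several and 907 none, from the platform annotation updated through RefSeq GRCm38.p6 (10279 of 10298 symbols matched). A gene is its probe set with the highest mean over all arrays. Background is the 95th percentile of 19 non-mouse control probe sets, 124.6, and 37.9% of tested values lay under it.

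Named genes are the 12 largest rises and falls past the threshold whose arrays did not overlap and whose higher mean was above background, clone names left out, filled up by lowest p on a side with fewer. To these come up to 4 called members in each direction of a list, or its 2 of lowest p, up to 6 of the difference between both ageing comparisons, and up to 5 per side. The lists and members were chosen with earlier results of these data known. Alternatives changed the groups fitted, the normalization, floor, pseudocount (16), filter and trend, and left out each array in turn. Figures were drawn with matplotlib 3.10.9.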

Additional observations from a re-analysis of the deposited data

Results flagged for a closer look

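The step from younger to older differed between the females and the m groups in 85 of 7406 genes by a test of that difference in limma, at an adjusted p under 0.05, and 31 of the 85 are among the named genes given here. The values are fitted log2 differences of the female step minus the m step, and 17 are positive. In Alas2, Tent5c, Slc27a4, Cdc42ep4, Icam5 and 1110032A03Rik the dimmer female group had a mean under the background of 124.6, so their sizes are not exact. In the erythroid transcripts they were 3.27 for Alas2, 3.27 for Hbb-b2, 3.24 for Hba-a1, 2.57 for Tent5c and 1.54 for Hba-ps3. Tyms-ps had 3.94, Cdc42ep4, a binding partner of the GTPase Cdc42, had 3.38, and Pik3r1 had 3.03. The lipid genes Slc27a4 and Lpl gave 2.66 and 1.89, the channel Kcna5 1.80, the kinase Sgk1 1.57 and Nfkbia 0.95. Mitochondrial genes followed with 1.12 for Uqcrq, 1.08 for Ndufb8, 1.01 for Atp5o and 0.92 for Idh2.

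In the other 14 the value was negative. The myocyte stress genes Nppa, Nppb and Acta1 gave -2.23, -1.96 and -1.47, Rrad -1.58 and the cardiac factor Nkx2-5 -0.92. Icam5, an adhesion molecule, had -3.49, 1110032A03Rik -2.80, Foxm1 -2.45, Scd1 -1.76 and Mcrip1 -1.64. Flt3 gave -1.32, Gstm5 -1.11, the asparagine synthetase Asns -1.07 and Zwint -0.86. The second Flt3 probe set gave -0.06 (adjusted p 0.974). Sex and the younger age of the females cannot be told apart in these values.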

How the results depend on the processing

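No paired analysis was possible because titles share no number that would tie an array of one group to one of another. The 37 calls between female ages became 16 with the 4 adult groups alone in the fit, 1 with the 2 female groups alone, 56 with the floor at the background and 15 without an intensity trend, and ranged from 11 to 69 when 1 array was left out. The 1 call of the m groups became 0 with the adult groups alone and 5 with the floor at the background, and ranged from 1 to 94. For the difference between both steps, 108 became 1 with the adult groups alone and 27 without a trend, and ranged from 19 to 347. The 61 for 3-month females against the m groups became 38 without a trend (21 to 112), and the 29 for 1-year females became 18 with median centring, 44 with the floor at the background and 12 without a trend (7 to 42). Of 28 named genes past the threshold, Tyms-ps alone kept its call in all 15 alternatives, 6 lost it only with the 2 groups alone, and 10 kept it in under 8. The sign turned for the second Tyms-ps probe set (-0.2614) and the third of Scd1 (0.0581). With 1 array left out, the sign also turned in 3 genes that did not pass: Apob ranged from -0.07639 (without 3-month replicate 2) to 1.521, Kdm6a from -0.0443 (without 3-month replicate 3) to 0.4151, and Eif2s3y from -1.35 to 0.07961 (without 1-year female replicate 3). The cause of these changes was not tested. With 3 arrays a group and 37.9% of tested values under background, differences in dim probe sets are bounds at best.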
